A study of Homo sapiens with 8 samples.

Results

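The H3K23su and H3K27ac regions of human chromosome 13 were examined in HCT15, an established colon cancer cell line, and in its derivative resistant to 5-fluorouracil (5-FU), a pyrimidine analogue used against colon cancer. Every peak listed on chromosome 13 in the 8 CUT&Tag peak lists was taken, and overlapping or touching peaks of the same mark were joined to a region, which gave 3666 of 122500 H3K23su regions and 4198 of 133786 H3K27ac regions. The parental line (HCT15-Pa) was labelled as treated with DMSO, and the resistant line (HCT15-FR) as treated with 5-FU at 20 µg/ml. In the methods, HCT15-FR was kept in 5-FU and moved to drug-free medium before experiments, and HCT15-Pa was grown without the drug alongside it. Each line and mark had 2 replicates. Nothing states that these came from separate cultures, so the spread between them may be technical. With 2 libraries against 2, an exact two-sided permutation test cannot give a p below 0.333, so no difference between the lines could pass that test, and the values of all libraries are given instead.

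Regions were classed by where a peak was listed. A region was FR-only when both replicates of HCT15-FR listed a peak there and neither replicate of HCT15-Pa did, Pa-only in the opposite case, and shared with a peak in all 4 libraries. It was single-library with a peak in 1 library, and mixed otherwise. The sets described here were thus chosen by the presence of peaks in these same libraries, and chromosome 13 was chosen by its excess of Pa-only regions, so everything that follows from them is a description without a test. CUT&Tag cuts and tags DNA next to an antibody-bound histone mark. H3K27ac marks active promoters and enhancers. Succinylation of lysine uses succinyl-CoA, a metabolite of the mitochondrial tricarboxylic acid cycle, and H3K23su is the succinyl form of lysine 23 of histone H3. Chromosome 13 is acrocentric, so its coding genes lie on the long arm, among them CDX2 and KLF5, transcription factors of the intestinal epithelium, and the tumour suppressor RB1. The colon origin was checked with H3K27ac peaks within 2 kb of the gene start. Of 11 colon epithelial markers, 8 and 8 had a peak in HCT15-Pa replicates 1 and 2, and 10 and 10 in those of HCT15-FR, whereas of 7 markers of blood, endothelial and stromal cells 1 and 2, and 3 and 2, did. PTPRC, CD3E, COL3A1 and PDGFRB had none in any library, and COL1A1 had a peak in all 4.

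Windows of 300 bases show the sequence under regions present in either line alone (hg19, plus strand, 5′ to 3′, centred on the midpoint of the H3K23su region). All lie in H3K23su regions that overlap an H3K27ac region of the same class. The first FR-only window and the first 2 Pa-only windows were among those whose weaker peak ranked highest in its list, without annotated exons in the window. The windows named with AP-1 were the highest ranked that held the AP-1 sequence TGACTCA on either strand, and they were added after the values were seen. Capitals mark TGACTCA or its reverse complement, and in the MIPEP window also the TEAD sequence GGAATGT.
FR-only, intron of RASA3, chr13:114812962-114813261: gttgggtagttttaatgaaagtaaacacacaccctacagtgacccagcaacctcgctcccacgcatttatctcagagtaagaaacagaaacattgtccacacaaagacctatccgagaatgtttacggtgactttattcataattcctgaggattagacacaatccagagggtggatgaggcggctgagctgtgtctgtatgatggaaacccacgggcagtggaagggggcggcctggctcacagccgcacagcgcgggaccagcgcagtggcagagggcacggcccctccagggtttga
FR-only with AP-1, between genes, nearest SLITRK6, chr13:85888030-85888329: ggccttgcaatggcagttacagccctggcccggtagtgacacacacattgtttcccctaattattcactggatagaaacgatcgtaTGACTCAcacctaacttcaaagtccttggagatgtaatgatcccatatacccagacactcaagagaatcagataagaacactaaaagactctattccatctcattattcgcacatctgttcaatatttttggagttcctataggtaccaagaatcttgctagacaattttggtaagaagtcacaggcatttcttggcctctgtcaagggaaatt
FR-only with AP-1, intron of MIPEP, chr13:24442529-24442828: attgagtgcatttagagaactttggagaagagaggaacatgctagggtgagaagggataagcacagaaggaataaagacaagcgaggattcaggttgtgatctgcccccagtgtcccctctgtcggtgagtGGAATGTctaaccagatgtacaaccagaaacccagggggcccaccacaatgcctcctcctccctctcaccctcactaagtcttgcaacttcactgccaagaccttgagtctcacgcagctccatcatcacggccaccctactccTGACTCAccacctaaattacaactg
Pa-only, between genes, nearest IRS2, chr13:110489224-110489523: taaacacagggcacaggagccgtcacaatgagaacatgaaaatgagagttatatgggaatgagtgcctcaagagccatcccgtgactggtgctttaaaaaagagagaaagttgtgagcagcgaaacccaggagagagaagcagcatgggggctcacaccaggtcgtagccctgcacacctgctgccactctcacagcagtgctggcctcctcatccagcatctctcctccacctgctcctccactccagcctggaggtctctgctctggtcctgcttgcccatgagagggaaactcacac
Pa-only, intron of CAB39L, chr13:49917386-49917685: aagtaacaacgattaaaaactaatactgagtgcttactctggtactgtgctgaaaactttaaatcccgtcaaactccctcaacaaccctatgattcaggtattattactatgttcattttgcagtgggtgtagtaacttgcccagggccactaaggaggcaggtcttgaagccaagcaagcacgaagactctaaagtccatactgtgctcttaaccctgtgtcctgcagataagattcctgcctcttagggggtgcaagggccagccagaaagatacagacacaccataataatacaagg
Pa-only with AP-1, between genes, nearest KPNA3, chr13:50430042-50430341: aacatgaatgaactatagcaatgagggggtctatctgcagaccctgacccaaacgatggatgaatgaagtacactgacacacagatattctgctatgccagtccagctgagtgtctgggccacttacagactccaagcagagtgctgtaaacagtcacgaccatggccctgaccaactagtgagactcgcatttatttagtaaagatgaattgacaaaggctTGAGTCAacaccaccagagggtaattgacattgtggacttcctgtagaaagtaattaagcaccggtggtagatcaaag

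The RASA3 window and the first 2 Pa-only windows held none of the 3 searched sequences, TGACTCA (AP-1), GGGCGTG (a KLF sequence) and GGAATGT (TEAD), on either strand. The RASA3 window lay 84987 bases from the start of RASA3, which encodes a GTPase-activating protein for Ras, and the region had H3K23su scores of 9.82 and 7.82 in HCT15-FR. The score is the −log10 P that the peak caller gave a peak. The Pa-only region 50443 bases from the start of IRS2 had scores of 8.36 and 8.36 in HCT15-Pa. Over all classes, TGACTCA was found in 39 of 204 FR-only H3K23su regions of chromosome 13 (19.1%, exact 95% interval 14.0 to 25.2), in 30 of 335 that were Pa-only (8.96%, 6.12 to 12.5) and 91 of 779 shared regions (11.7%). Among H3K27ac regions, 61 of the 270 that were FR-only held it (22.6%, 17.7 to 28.1), as did 28 of the 341 that were Pa-only (8.21%, 5.53 to 11.6). The same order held over all chromosomes, at 16.9% (FR-only) and 9.08% (Pa-only) for H3K23su and at 19.6% and 10.7% for H3K27ac. Of all regions of the marks, whatever their class, 10.3% (H3K23su) and 10.9% (H3K27ac) held it. FR-only regions on chromosome 13 also held fewer G and C bases, with a median of 45.3% against 51.3% in Pa-only H3K23su regions and 42.7% against 53.7% for H3K27ac. The medians over all chromosomes were 48% against 53.3% and 46.3% against 55.3%, and the part of base composition in the motif shares was not tested. GGAATGT was found in 4.90% of FR-only and 6.87% of Pa-only H3K23su regions and in 7.04% and 4.69% of H3K27ac regions, with overlapping intervals. GGGCGTG was found in 3.92% and 3.88% of H3K23su regions, and in 3 FR-only (1.11%) and 14 Pa-only (4.11%) H3K27ac regions.

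Chromosome 13 carried fewer peaks of both marks in HCT15-FR, and regions specific to HCT15-Pa outnumbered those specific to HCT15-FR. H3K23su peaks on the chromosome numbered 2156 and 2173 in HCT15-Pa and 1705 and 1644 in HCT15-FR. H3K27ac peaks numbered 2412 and 2313 in HCT15-Pa and 1745 and 1809 in HCT15-FR. The groups did not overlap in either mark. The whole lists were longer in HCT15-FR, with 67006 and 66554 autosomal H3K23su peaks against 64951 and 64211 in HCT15-Pa, and 72371 and 75162 against 70433 and 69236 for H3K27ac. As a share of autosomal peaks, chromosome 13 held 3.35% ± 0.0458 (SD, n = 2) of H3K23su peaks in HCT15-Pa and 2.51% ± 0.0526 (n = 2) in HCT15-FR, a ratio of 0.748. For H3K27ac the shares were 3.38% ± 0.0592 (n = 2) and 2.41% ± 0.00310 (n = 2), a ratio of 0.712. Peaks found in 1 library alone followed the same order. Of the single-library H3K23su peaks, 3.85% and 3.98% lay on chromosome 13 in HCT15-Pa and 2.27% and 1.98% in HCT15-FR, and of those of H3K27ac 4.87% and 4.61%, and 2.34% and 2.12%.

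Of the 3666 H3K23su regions, 204 were FR-only (5.56%, against 7.95% of all regions of that mark) and 335 were Pa-only (9.14%, against 5.01%). A further 779 were shared, 575 were mixed and 1773 were single-library. Of the 4198 H3K27ac regions, 270 were FR-only (6.43%, against 9.08%) and 341 Pa-only (8.12%, against 4.53%), with 799 shared, 562 mixed and 2226 single-library. The ratio of FR-only to Pa-only regions was 0.609 for H3K23su and 0.792 for H3K27ac, the lowest of the 22 autosomes in both marks. Chromosome 18 came next at 1.27 and 1.38, and the medians of the other autosomes were 1.64 and 2.08. Relative to all other autosomes, the log2 ratio was −1.44 for H3K23su (exact 95% interval −1.70 to −1.18) and −1.40 for H3K27ac (−1.64 to −1.17), where the intervals cover counting error only. Leaving out 1 library lets the other library of that line define its regions alone. FR-only H3K23su regions then numbered 483 without HCT15-FR replicate 1 and 527 without replicate 2, and Pa-only regions 962 without HCT15-Pa replicate 1 and 964 without replicate 2. For H3K27ac these counts were 598, 583, 1138 and 1215. The relative log2 ratio stayed below 0 without any 1 library, reaching from −1.41 to −1.09 in H3K23su and from −1.32 to −1.16 in H3K27ac. In the stronger 50% of each list the H3K27ac order turned, with 145 FR-only and 135 Pa-only regions, although relative to the other autosomes the log2 ratio was still −0.91. The H3K23su counts there were 88 and 145.

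**Figure D1:**
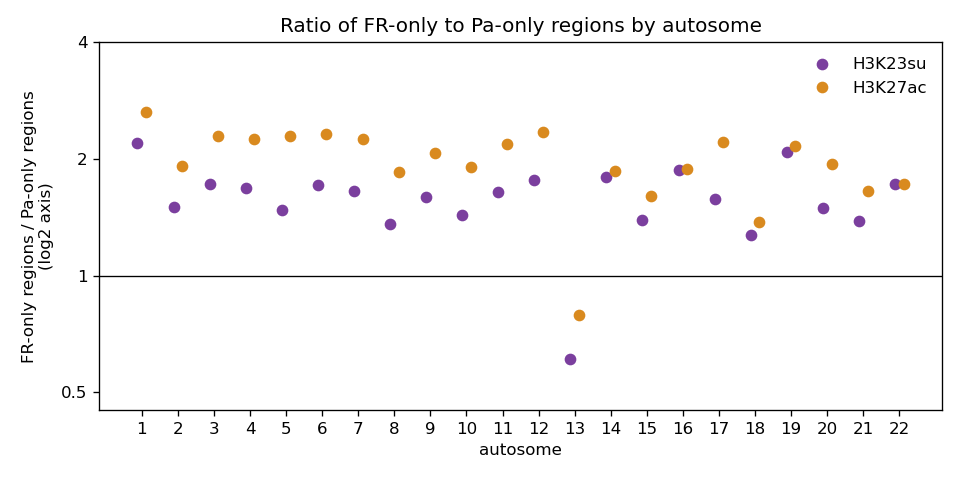
Ratio of FR-only to Pa-only regions (y axis, log2 scale) for each of the 22 autosomes (x axis), with H3K23su in purple and H3K27ac in orange. Chromosome 13 lies below 1 in both marks, at 0.609 and 0.792, and all other autosomes lie at 1.27 or above.

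Most regions at the edge of the classes were weak. The weaker of the 2 peaks of a Pa-only region had a median score of 3.85 for H3K23su and 3.64 for H3K27ac, and that of an FR-only region 3.92 and 4.13, whereas single-library peaks, just outside these classes, had medians of 3.87 and 3.62. The lowest weaker peaks inside the classes scored between 2.94 and 3.09, and the lists themselves began between 2.90 and 3.07. The weaker peak ranked below percentile 25 of its list in 45.7% of Pa-only and 47.1% of FR-only H3K23su regions, and in 50.4% and 34.1% of H3K27ac regions. Shared regions were wider, with medians of 1014 and 1050 bases against 517 to 557.5 bases for the 4 sets specific to a line. A shared region joins peaks of 4 libraries and a line-specific one those of 2, so the merging itself adds width. Of the FR-only H3K23su regions, 85 of 204 (41.7%) overlapped an FR-only H3K27ac region and 0 a Pa-only region. Of the Pa-only H3K23su regions, 72 of 335 (21.5%) overlapped a Pa-only H3K27ac region and 3 an FR-only region. On the other autosomes the like-with-like shares were 35.7% and 19.0%.

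Relative to the other autosomes, shared regions of chromosome 13 also scored lower in HCT15-FR. The scores themselves were not lower there. Over all chromosome 13 peaks, the median H3K23su score was 4.41 and 4.33 in HCT15-Pa and 4.50 and 4.59 in HCT15-FR. For H3K27ac it was 4.09 and 4.11, and 4.63 and 4.58. The difference in mean log2 score, HCT15-FR minus HCT15-Pa, was centred on the median of shared regions of the other autosomes. Its median was −0.13 over 779 H3K23su regions, with 67.8% below 0, and −0.16 over 799 H3K27ac regions, with 64.7% below 0. The quartiles were −0.34 and 0.05 for H3K23su and −0.37 and 0.14 for H3K27ac, so many shared regions lay above 0. Both medians were the lowest of the 22 autosomes, where the next were −0.04 on chromosome 8 and −0.07 on chromosome 21. Libraries with replicate number 1 gave −0.17 and −0.16, and those with number 2 gave −0.14 and −0.14, for H3K23su and H3K27ac in that order.

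Along the arm the excess of Pa-only regions was uneven. In 5 Mb bins, counted from the bin of 15 to 20 Mb, 18 of 21 bins held at least 20 H3K23su regions and 17 held at least 20 H3K27ac regions. Both HCT15-FR libraries had a peak in fewer regions than both HCT15-Pa libraries in 15 of these 18 bins and in 16 of these 17. Pa-only regions were the more frequent in 14 and 12 bins, FR-only regions in 3 and 4. Across the 17 bins the ratio of regions with a peak, HCT15-FR over HCT15-Pa, was alike in the 2 marks (Pearson r = 0.940, Spearman rho = 0.762), a description over bins that share libraries and gene density.

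**Figure D2:**
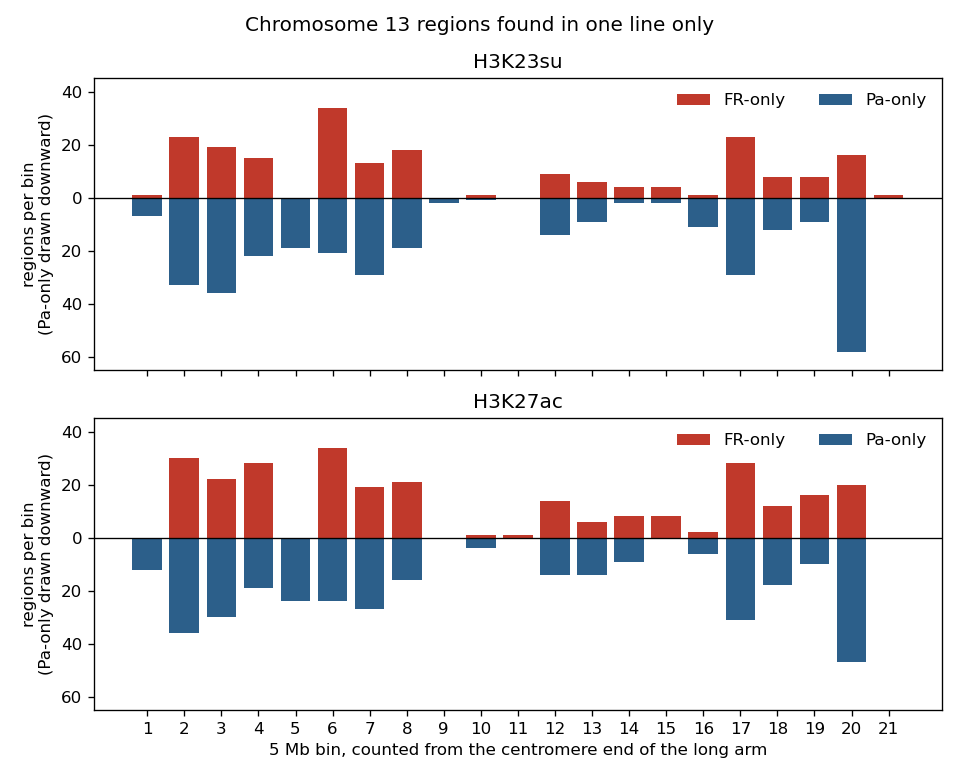
FR-only regions (red, upward) and Pa-only regions (blue, downward) in each 5 Mb bin of chromosome 13 (x axis, bin number from the centromere end, bin 1 being 15 to 20 Mb), for H3K23su above and H3K27ac below. Bin 5 holds 0 FR-only regions against 19 and 24 Pa-only regions, bin 6 holds 34 FR-only regions in each mark against 21 and 24, and bin 20 holds the most Pa-only regions, 58 and 47.

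The bin of 35 to 40 Mb held no FR-only region. Its H3K23su regions had a peak in 52 and 61 cases in HCT15-Pa and in 15 and 15 in HCT15-FR, a ratio of 0.265, and its H3K27ac regions in 86 and 81 cases and in 18 and 17, a ratio of 0.210. The adjoining bin of 40 to 45 Mb held more FR-only regions, with 34 FR-only against 21 Pa-only H3K23su regions and 34 against 24 H3K27ac regions. Other autosomes had a median of 1.64 FR-only regions per Pa-only region for H3K23su and 2.08 for H3K27ac, and this bin exceeded neither. Its H3K23su counts were 168 and 167 in HCT15-Pa and 168 and 162 in HCT15-FR, which overlapped, and its H3K27ac counts were 184 and 177, and 171 and 162. Fewer regions also had a peak in HCT15-FR at 15 to 20 Mb (16 and 13 against 3 and 1 for H3K23su, 26 and 23 against 3 and 2 for H3K27ac) and at 90 to 95 Mb (28 and 25 against 9 and 7, 30 and 33 against 16 and 13). The bin of 110 to 115 Mb held the most Pa-only regions, 58 against 16 FR-only for H3K23su and 47 against 20 for H3K27ac. Its H3K23su counts were 312 and 314 in HCT15-Pa and 225 and 217 in HCT15-FR.

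**Figure D3:**
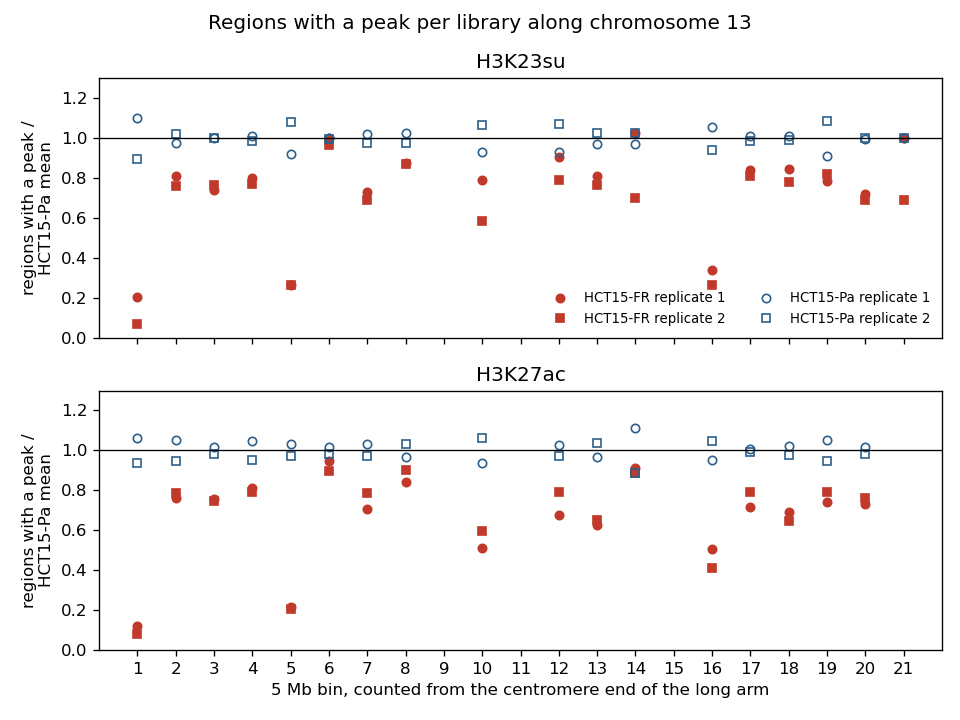
Regions with a peak in each library divided by the HCT15-Pa mean of the bin (y axis) for each 5 Mb bin with at least 20 regions (x axis, bin number from the centromere end), with HCT15-FR filled and HCT15-Pa open. HCT15-FR libraries lie lowest in bins 1, 5 and 16 and close to 1 in bin 6, with mean ratios of 0.985 and 0.922 there for H3K23su and H3K27ac.

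Against this pattern, the bin of 85 to 90 Mb held more peaks in HCT15-FR. It is sparse, with 11 H3K23su and 17 H3K27ac regions, of which 4 and 8 were FR-only and 2 and 0 Pa-only. The H3K27ac regions had a peak in 0 and 2 cases in HCT15-Pa and in 12 and 14 in HCT15-FR. All but 1 of these 12 FR-only regions lay between 85887593 and 86190633, within and around LINC00351, a long noncoding RNA gene, and 190323 to 492768 bases from SLITRK6, which encodes a membrane protein of the SLITRK family. The strongest, at chr13:85887593-85888508, scored 7.98 and 8.70 for H3K27ac, and the H3K23su region inside it 6.40 and 6.54. It is the first of the AP-1 windows printed above. SLITRK6 itself had no peak of either mark from 2 kb upstream to its end in any library.

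The position of changes in the FR-only share was estimated by dividing the ordered FR-only and Pa-only regions into segments of at least 20 regions. Each mark gave 4 segments. For H3K23su the segment with the lowest FR-only share ran from 33817140 to 40342674 and held 0 FR-only and 27 Pa-only regions. For H3K27ac it ran from 34921919 to 40571342 and held 0 and 31. Both segments were picked for the lowest share among these same regions, so an interval on that share would not hold and none is given. Starts within 2 log-likelihood units of the best ranged from 33817140 to 35421873 for H3K23su and from 34921919 to 35181291 for H3K27ac. The ends ranged from 40311643 to 41027035 and from 40311944 to 40571342. The H3K23su segment was followed by a short segment to 45010137 with 35 FR-only and 17 Pa-only regions, whose end was poorly placed (44761066 to 111370033). Its FR-only share was 67.3%, and the shares of other autosomes reached 68.8% on chromosome 1. No breakpoint remained in either mark with a doubled penalty or with the stronger 50% of each list, nor for H3K23su without HCT15-Pa replicate 2. With the marks together, the segment was 34.9 to 40.6 Mb and held 0 of 55 FR-only. Breakpoints were not specific to chromosome 13, since the other autosomes had a median of 2 in each mark and up to 4 and 7.

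Within that segment, gene starts kept a larger share of their peaks than positions elsewhere. H3K23su peaks within 2 kb of a coding gene start numbered 10 and 14 in HCT15-Pa and 8 and 8 in HCT15-FR, a ratio of means of 0.667. Elsewhere they numbered 91 and 96, and 39 and 40, a ratio of 0.422. For H3K27ac the counts at gene starts were 14 and 13, and 7 and 7, a ratio of 0.519, and elsewhere 88 and 86, and 16 and 14, a ratio of 0.172. The same order was seen on the rest of chromosome 13. H3K23su peaks at gene starts numbered 196 and 191 in HCT15-Pa and 189 and 194 in HCT15-FR, so the lines overlapped (ratio 0.990), whereas elsewhere there were 1859 and 1872 against 1469 and 1402 (0.769). H3K27ac peaks at gene starts numbered 213 and 201 against 192 and 198 (0.942), and elsewhere 2097 and 2013 against 1530 and 1590 (0.759). On the other autosomes the ratios were 1.01 at gene starts and 1.05 elsewhere for H3K23su, and 0.997 and 1.08 for H3K27ac. Promoters, from 1 kb before to 100 bases after a transcript start, made up 20.4% of shared H3K23su and 22.5% of shared H3K27ac regions. Their shares were lower in Pa-only (6.27% and 8.80%), FR-only (4.90% and 5.93%) and single-library regions (5.53% and 4.67%). The weakest peak of a shared region had median scores of 4.46 and 4.83, above those of the other classes, and the part of peak strength in this contrast was not tested.

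**Figure D4:**
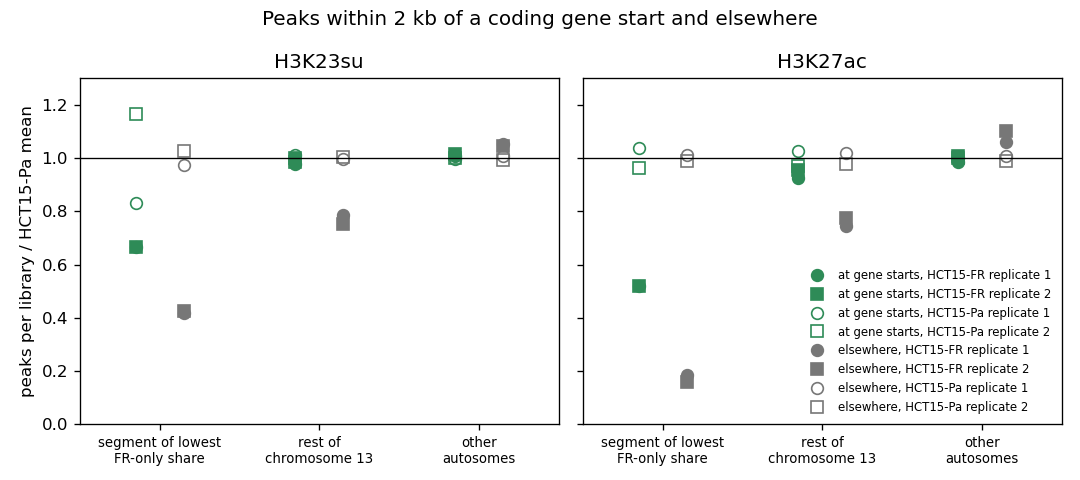
Peaks in each library divided by the HCT15-Pa mean (y axis), within 2 kb of a coding gene start (green) and elsewhere (grey), for the segment of lowest FR-only share, the rest of chromosome 13 and the other autosomes, with HCT15-FR filled and HCT15-Pa open. At gene starts on the rest of the chromosome the lines lie together (ratios 0.990 and 0.942), and elsewhere HCT15-FR lies lower (0.769 and 0.759).

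Of the 26 coding genes that start in the H3K23su segment, 9 had a shared region within 2 kb of the start, 2 a Pa-only region and 0 an FR-only region. Of the 24 in the H3K27ac segment, 8 had a shared, 3 a Pa-only and 0 an FR-only region. The segments were chosen for holding Pa-only and no FR-only regions, so the latter 2 counts follow from that choice. Genome-wide, 52.3% (H3K23su) and 56.8% (H3K27ac) of coding genes had a shared region at the start, and 1.97% and 2.44% were Pa-only there. The shared starts of both marks belonged to RFXAP, a regulator of MHC class II genes, EXOSC8 of the RNA exosome with its divergent neighbour ALG5, a glucosyltransferase of N-glycosylation, SUPT20H of the SAGA complex, UFM1, a ubiquitin-like modifier, PROSER1 with NHLRC3, and COG6 of the Golgi tethering complex. RFC3, a subunit of the clamp loader of DNA replication, was shared in the H3K23su segment. Over these starts the centred log2 difference in score had a median of 0.08 for H3K23su, with 4 of 9 genes below 0, and of 0.04 for H3K27ac, with 1 of 8 below 0. ALG5 and EXOSC8 had the same scores in both marks, as did PROSER1 and NHLRC3. These genes are thus not separate observations, and the medians and counts include their scores more than once. UFM1 had H3K27ac scores of 32.1 and 30.3 in HCT15-Pa and 39.7 and 34.8 in HCT15-FR. COG6 had H3K23su scores of 9.28 and 9.92, and 13.8 and 12.5. The scores of UFM1 and COG6 were thus higher in both HCT15-FR libraries. As percentiles of each list, UFM1 stood lower in HCT15-FR, at 99.896 and 99.863 against 99.859 and 99.803, with a centred difference of 0.06. COG6 stood higher, at 98.2 and 98.7 against 99.6 and 99.2, with a centred difference of 0.28. The H3K23su window of SUPT20H also held a Pa-only region, and SMAD9 was the other of the 2 Pa-only starts. COG6 also held 2 Pa-only regions in each mark and no FR-only region along its body, so its start and body differed.

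Along NBEA, SMAD9, LHFPL6 and DCLK1, few or no regions had a peak in HCT15-FR. STARD13, which starts in the H3K23su segment and runs out of it, was otherwise, with 19 and 19 H3K23su regions with a peak in HCT15-Pa and 18 and 17 in HCT15-FR. NBEA (ENSG00000172915, chr13:35516407-36247159), which encodes the membrane trafficking scaffold neurobeachin, held 12 and 10 H3K23su regions with a peak in HCT15-Pa and 0 and 0 in HCT15-FR, and 12 and 8 against 0 and 1 for H3K27ac. It held 9 Pa-only regions of the 2 marks, the joint highest count on the chromosome with UGGT2. SMAD9 (ENSG00000120693), a signal transducer of BMP receptors, was Pa-only at its start in both marks, with H3K23su scores of 3.87 and 3.80 and H3K27ac scores of 5.03 and 4.50, and no peak there in HCT15-FR. LHFPL6, a gene of a tetraspan membrane protein, had a Pa-only H3K27ac region at its start (4.77 and 4.14) and 3 and 5 H3K23su regions with a peak against 0 and 0. DCLK1, a kinase known as a tuft cell marker in the intestine, had no peak at its start and 8 and 4 H3K27ac regions with a peak against 1 and 1.

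Over the whole chromosome, few of the 322 coding genes had a region specific to either line at the start. FR-only H3K23su regions lay within 2 kb of 5 starts (1.55%, against 3.4% of 20162 coding genes genome-wide) and Pa-only regions of 7 (2.17%, against 1.97%). For H3K27ac these were 7 (2.17%, against 2.55%) and 14 (4.35%, against 2.44%). Shared regions lay at 178 and 185 starts, 55.3% and 57.5%, where the genome-wide shares were 52.3% and 56.8%. The exact 95% interval of each of these 6 shares included the genome-wide value. A gene could have a region of more than 1 class in its window. The counts were sensitive to single libraries, as FR-only H3K23su starts numbered 13 and 16 without HCT15-FR replicates 1 and 2, and Pa-only starts 16, 15 and 13 without HCT15-Pa replicate 1, HCT15-Pa replicate 2 and HCT15-FR replicate 1. For H3K27ac, FR-only starts numbered 11 without HCT15-Pa replicate 2, and Pa-only starts 28 and 40 without HCT15-Pa replicates 1 and 2.

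The 11 genes with FR-only regions at the start were SMIM2, EFNB2, RAB20, KCNRG, RCBTB1, GJA3, F7, FLT1, EBPL, IRS2 and SLC15A1. SMIM2, a gene of a small membrane protein, was the only one of the 11 FR-only in both marks, with H3K23su scores of 6.22 and 4.32 and H3K27ac scores of 4.84 and 4.58 in HCT15-FR and no peak at the start in HCT15-Pa. KCNRG, a regulator of potassium channels, was FR-only for H3K27ac with 6.26 and 4.79 and had no H3K23su peak in any library. GJA3, a connexin gene, was FR-only for H3K23su (5.35 and 3.74), but its H3K27ac scores were 6.54 and 6.49 in HCT15-Pa and 4.80 and 5.31 in HCT15-FR. FLT1, a receptor of VEGF, and IRS2, an adaptor of the insulin receptor, were FR-only for H3K23su with 3.58 and 4.13, and 3.56 and 3.47. Their starts had H3K27ac peaks in all 4 libraries, at 4.57, 4.95, 4.98 and 4.22 for FLT1 and 6.60, 6.43, 6.36 and 6.41 for IRS2, in the order HCT15-Pa then HCT15-FR. F7, coagulation factor VII, was FR-only for H3K27ac at 3.47 and 6.20. In EFNB2, the ligand ephrin-B2 of EPH receptors, the FR-only H3K27ac region joined a start that had peaks in all 4 libraries, and 3 FR-only against 0 Pa-only H3K27ac regions lay in the gene. RAB20, RCBTB1 and EBPL also kept another peak in all 4 libraries near the start. At EBPL the H3K27ac scores were lower in HCT15-FR, 8.62 and 11.2 against 7.88 and 5.76, with a centred log2 difference of −0.74. At RCBTB1 they were 7.86 and 8.43 in HCT15-Pa and 10.5 and 8.91 in HCT15-FR, with a centred difference of 0.05. SLC15A1, the intestinal peptide transporter, was FR-only at 3.87 and 3.09, with a further peak of 3.61 in HCT15-Pa replicate 1 in the window, so the window was not empty in HCT15-Pa.

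RCBTB2 (ENSG00000136161, chr13:49063099-49107392, minus strand), a gene of an RCC1 and BTB domain protein that lies within the annotated span of RB1 on the opposite strand, had the highest ranked Pa-only start. Its H3K23su scores in HCT15-Pa were 8.49 and 8.45 and its H3K27ac scores 19.6 and 16.4, at percentiles 97.2 and 96.8, and 99.2 and 98.1, of their lists, and no peak lay at the start in HCT15-FR. Over the gene, 3 and 3 H3K23su regions had a peak in HCT15-Pa and 0 and 0 in HCT15-FR. KBTBD7 (ENSG00000120696, chr13:41763970-41768705), a substrate adaptor of CUL3 ubiquitin ligases, was Pa-only in both marks as well, at 5.42 and 5.66 for H3K23su and 8.74 and 9.72 for H3K27ac. It lies in the H3K23su segment from 40833537 to 45010137, where FR-only regions were the more frequent. SMAD9 was the other gene of this kind. The rest were Pa-only in 1 mark. LCP1, the actin-bundling protein plastin, shared a Pa-only H3K27ac region (6.22 and 4.72) with its divergent neighbour LRRC63, and neither had an H3K23su peak at the start. KCTD12 was Pa-only for H3K27ac (4.23 and 3.69) with no H3K23su peak in the gene. LMO7 was Pa-only for H3K27ac (4.58 and 3.88), while its H3K23su window scored 5.09 and 3.71 in HCT15-Pa, 4.31 in HCT15-FR replicate 1 and had no peak in replicate 2. SPATA13 and the overlapping ENSG00000273167 shared a Pa-only H3K27ac region (3.74 and 3.88), with no H3K23su peak at the start. TPTE2 was Pa-only for H3K23su (3.57 and 6.83), while its H3K27ac scores were 3.72 and 3.89 in HCT15-Pa and 4.58 and 3.73 in HCT15-FR. RASA3 had a Pa-only H3K23su region at its start, but its window scored 4.84 and 5.31 in HCT15-Pa and 4.24 and 4.33 in HCT15-FR, so it was not empty in HCT15-FR. IL17D and GRTP1 kept other H3K27ac peaks in all 4 libraries, and IL17D scored 8.48 and 8.75, and 9.23 and 6.26.

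Along gene bodies, counted from 2 kb upstream of the start to the gene end, 79 of the 322 genes had more Pa-only than FR-only H3K23su regions (24.5%, against 9.9% of all coding genes) and 47 had fewer (14.6%, against 18.1%). For H3K27ac these were 74 (22.98%, against 8.19%) and 46 (14.3%, against 20.6%). Of the 178 genes with a shared H3K23su region at the start, 70 held a Pa-only region (39.3%, against 17.2% of all such genes) and 55 an FR-only region (30.9%, against 26.9%). Of the 185 with a shared H3K27ac start, 53 held a Pa-only region (28.6%, against 12.3%) and 48 an FR-only region (25.9%, against 27.3%). CDK8, a kinase of the Mediator complex, had start scores for H3K23su of 13.1 and 11.3 in HCT15-Pa and 12.6 and 11.8 in HCT15-FR, which overlapped. Its body held 8 Pa-only and 0 FR-only H3K23su regions, and 14 and 17 against 4 and 3 regions with a peak. Its H3K27ac regions included neither kind. UGGT2, a glycoprotein glucosyltransferase of the endoplasmic reticulum, held 9 Pa-only and 0 FR-only regions of the 2 marks, with 19 and 17 against 7 and 7 H3K23su regions with a peak, while its start had H3K23su scores of 7.11 and 7.82 in HCT15-Pa and 10.4 and 9.38 in HCT15-FR. The H3K27ac scores of that start had the opposite order, at 12.7 and 11.5 in HCT15-Pa and 7.73 and 9.66 in HCT15-FR. FARP1, a FERM domain exchange factor, held 8 Pa-only and 3 FR-only regions, with 30 and 27 against 18 and 23 H3K23su regions with a peak and an overlap in H3K27ac (28 and 24 against 20 and 26). RASA3 also held 8 and 3, with 17 and 19 against 15 and 13 H3K23su regions with a peak. ATP11A, a phospholipid flippase, held 7 and 4, with 26 and 28 against 18 and 19 H3K23su regions with a peak and overlapping H3K27ac numbers (25 and 21 against 23 and 22). SUCLA2, a subunit of the ADP-forming succinyl-CoA synthetase, held 8 Pa-only and 1 FR-only region. RB1 held 5 Pa-only and 2 FR-only H3K23su regions and 21 and 16 against 7 and 6 regions with a peak, and its start scores were 7.38 and 8.45, and 8.10 and 8.46. These body counts include the regions of RCBTB2, which the annotated span of RB1 contains.

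**Figure D5:**
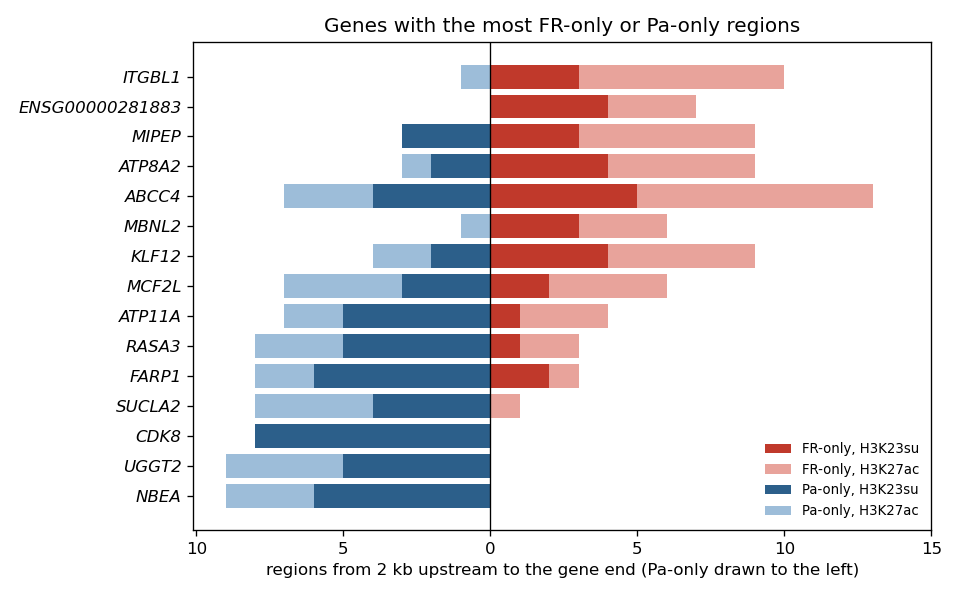
FR-only regions (red, to the right) and Pa-only regions (blue, to the left) from 2 kb upstream to the gene end for the 15 coding genes with the most of either kind, with H3K23su dark and H3K27ac light (x axis, number of regions). ABCC4 has the most FR-only regions, 13 against 7 Pa-only, while ITGBL1 with 10 against 1 and ENSG00000281883 with 7 against 0 have the widest excess of FR-only regions, and NBEA, UGGT2 and CDK8 have 9, 9 and 8 Pa-only and 0 FR-only regions.

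Of the 8 genes with the most FR-only regions, all but MCF2L held more FR-only than Pa-only regions. ITGBL1 (ENSG00000198542, chr13:102104944-102373206), a secreted protein related to beta integrins, held 10 FR-only regions and 1 Pa-only region of the 2 marks. Its H3K23su regions had a peak in 1 and 0 cases in HCT15-Pa and in 6 and 7 in HCT15-FR, and its H3K27ac regions in 1 and 1, and 8 and 7. This separation follows from naming the gene by its FR-only regions. Its start had no H3K27ac peak in any library. ENSG00000281883 (chr13:44457936-44602662), which has no symbol in the annotation used, held 7 FR-only and 0 Pa-only regions and lay in the 40 to 45 Mb bin with SMIM2. ABCC4, an efflux transporter of organic anions and nucleotide analogues, held the most FR-only regions, 13, but also 7 Pa-only regions. Its H3K27ac regions had a peak in 17 and 20 cases in HCT15-Pa and 17 and 20 in HCT15-FR, the same numbers in both lines. The H3K27ac FR-only region with the highest ranked weaker peak lay in an ABCC4 intron (chr13:95775720-95776761, 12.7 and 14.0) and overlapped a shared H3K23su region. MIPEP, a mitochondrial peptidase, held 9 FR-only and 3 Pa-only regions, and its H3K27ac regions had a peak in 11 and 9, and 16 and 17 cases. ATP8A2, a phospholipid flippase, and KLF12, a repressor of the KLF family, held 9 FR-only against 3 and 4 Pa-only regions, with overlapping libraries in both marks. MBNL2, a splicing regulator, held 6 and 1, and STK24, a kinase of the STE20 group, tied with it at 6 FR-only regions against 2. MCF2L held 6 FR-only and 7 Pa-only regions. Its start had H3K27ac scores of 12.3 and 12.8 in HCT15-Pa and 5.12 and 4.44 in HCT15-FR, a centred log2 difference of −1.59, so the start stood lower in HCT15-FR. FOXO1, a forkhead factor, held 5 FR-only and 0 Pa-only regions, and its H3K27ac regions had a peak in 5 and 4 cases in HCT15-Pa and in 8 and 10 in HCT15-FR.

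The gene lists named for chromosome 13 were counted the same way. Of all regions of the chromosome specific to a line, 37.8% were FR-only for H3K23su and 44.2% for H3K27ac. All chromosomes held 9735 FR-only against 6143 Pa-only H3K23su regions and 12147 against 6066 H3K27ac regions. No list was tested against these values. Of the 4 intestinal factors, CDX2, PDX1, KLF5 and KLF12 all had shared H3K27ac regions at the start, and 0 had a region specific to either line there. For H3K23su only PDX1 and KLF12 had a shared start. CDX2 had an H3K23su peak there in HCT15-FR replicate 2 alone (4.45), and KLF5 had none in HCT15-FR replicate 1. CDX2 scored 6.91 and 6.22 in HCT15-Pa and 8.07 and 8.26 in HCT15-FR, and PDX1 5.87 and 5.67, and 8.68 and 7.17, both with higher values in both HCT15-FR libraries. These scores are the highest of each library in the window. Their percentiles in each list overlapped between the lines for CDX2, so its rank did not separate them. For PDX1 the percentiles were higher in both HCT15-FR libraries. The centred log2 differences, −0.04 and 0.26, are of the strongest shared region alone. For CDX2 the scores do not all belong to that region, so its difference does not describe them. KLF5 scored 6.30 and 7.75, and 4.33 and 6.16, for H3K27ac, with a centred log2 difference of −0.63. Of 20 genes of the cell cycle, repair and chromatin, 19 were shared at the start in each mark and 0 were FR-only or Pa-only, while their bodies held 23 Pa-only against 11 FR-only H3K23su regions and 8 against 7 H3K27ac regions. The centred H3K27ac difference was below 0 in 18 of these 19 and had a median of −0.20, where the median over the 185 shared starts of the chromosome was −0.21. The 14 genes of metabolism and transport held 15 FR-only and 15 Pa-only H3K23su regions and 22 and 10 H3K27ac regions, of which ABCC4 and ATP8A2 held 13 FR-only. The 23 signalling genes held 18 and 21, and 24 and 23. The 22 genes of matrix, adhesion and cytoskeleton held 8 and 14, and 11 and 17, and COL4A1 and COL4A2, the divergent collagen IV genes, held no FR-only region of either mark and 5 Pa-only regions each. COL4A1 had 16 and 12 H3K27ac regions with a peak in HCT15-Pa and 6 and 4 in HCT15-FR. A Pa-only H3K27ac region in an intron of COL4A2 (chr13:111071398-111072563, 10.8 and 11.7) was the second ranked of its class.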

How the data were processed

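CUT&Tag was performed for H3K23su and H3K27ac in HCT15-Pa and HCT15-FR cells, with 2 libraries per line and mark. The authors aligned paired reads to hg19 with Bowtie2, used SAMtools to keep uniquely mapped, properly paired reads without duplicates, and ran MACS2 on each library separately, in broad mode for H3K27ac. Each deposited list holds the peaks and their −log10 P, used here as the score. Broad calling, list length and depth set which weak peaks are listed. Read depth and DNA copy number were not analysed here, so the precision rests on peak numbers.

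Peaks were merged with a minimum overlap of 1 base or contact, and classed by presence with Python 3.11.15 (pandas 2.3.3, scipy 1.17.1, pysam 0.24.0). Segments came from optimal binomial segmentation with a penalty of the natural log of the number of regions, tested on simulated data. Genes were from GENCODE release 44 lifted to hg19. Sequences were read from GRCh37, and Pa-only windows with an exon (3) were passed over. A window of the FR-only set and a gene of the lists are not reported here. Motifs were searched as exact matches on both strands. Named genes were all coding genes with an FR-only region at the start, the 15 highest ranked Pa-only ones, the 8 with the most FR-only and the 8 with the most Pa-only regions, and listed genes. FOXO1, COL4A1, UFM1 and the other genes described beyond these counts were picked from the lists or the segment after their values were seen. The regions, rules and lists were chosen with earlier results of these data known. Equally numbered libraries share only a number (correlation of score deviations −5.66e-05 and −0.00279). Alternatives were equal list lengths, the stronger 50% of each list, coverage of the region, wider merging, distance from assembly gaps, other gene windows, other segment settings and leaving out each library.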

Additional observations from a re-analysis of the deposited data

How the results depend on the processing

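The lower share of chromosome 13 in HCT15-FR kept its direction under all alternatives run. So did the excess of Pa-only over FR-only regions and the lower scores of shared regions, both relative to other autosomes. The difference in share, −0.844 percentage points for H3K23su and −0.974 for H3K27ac, was −0.901 and −0.763 by covered length and −0.928 and −0.497 in the stronger 50% of each list. With that stronger 50%, H3K23su had 88 FR-only and 145 Pa-only regions, H3K27ac had 145 and 135, so that FR-only regions were the more numerous, and the relative log2 ratio of H3K27ac was −0.91. The replicate block gave relative log2 ratios of −1.02 and −1.12, where peaks of 1 library of each line are compared and weak ones count more, and a score difference of −0.16 for H3K23su. Shared H3K27ac regions away from assembly gaps had a score difference of −0.13, and on the percentile scale the differences were −3.97 for H3K23su and −2.43 for H3K27ac. With both marks together, the H3K27ac segment began at 34.9 Mb. FR-only H3K23su starts numbered 12 with 5 kb and 12 with every transcript start, Pa-only ones 11, 26 and, in the stronger 50%, 4. FR-only H3K27ac starts numbered 16 with every transcript start and 4 in the stronger 50%, and Pa-only ones 23 with 5 kb, 27 with every transcript start and 8 in the stronger 50%.

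Leaving out each library in turn gave 274 to 527 FR-only and 419 to 964 Pa-only H3K23su regions, 344 to 598 and 432 to 1215 H3K27ac regions, relative log2 ratios of −1.41 to −1.09 and −1.32 to −1.16, and a score difference of −0.15 to −0.12 for H3K27ac. The H3K27ac segment then ended at 40.6 Mb to 40.6 Mb. Gene starts numbered 7 to 16 (FR-only) and 10 to 16 (Pa-only) for H3K23su, and 8 to 11 and 15 to 40 for H3K27ac. Without HCT15-Pa replicate 2, with a doubled penalty and in the stronger 50%, the H3K23su regions gave no breakpoint, and the latter 2 settings gave none for H3K27ac, so these have no value here.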
